A study of Mus musculus with 6 samples.

Results

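The replication-dependent histone genes are the clustered copies that code for the linker histone H1 and the core histones H2A, H2B, H3 and H4. They were taken as the protein-coding rows of the count table whose Ensembl identifier maps to a symbol beginning Hist1h, Hist2h, Hist3h or Hist4h, or to the newer names H1f1 to H1f6, H2ac, H2bc, H3c and H4c. This rule found 60 genes of 32377 in the table: 5 of H1, 15 of H2A, 17 of H2B, 10 of H3 and 13 of H4. By cluster, 52 lie in Hist1 on chromosome 13, 5 in Hist2 on chromosome 3, 2 in Hist3 on chromosome 11 and 1 in Hist4 on chromosome 6. The rows of 3 pseudogenes with matching symbols were left out, and 7 further matching genes, Hist1h1t, Hist1h2aa, Hist2h2aa1, Hist2h2aa2, Hist2h2bb, Hist2h3b and Hist2h3c1, were not analysed here.

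Core histones form the spool around which DNA is wound, and H1 binds the DNA that enters and leaves it. The clustered genes are transcribed mainly in S phase, when new DNA must be packed, and their messages are unusual in having no introns and, as a rule, no poly(A) tail. The message ends shortly after a conserved stem-loop that is bound by the protein SLBP, although some of these genes can also give longer, polyadenylated transcripts. Replacement histones are made from genes outside the clusters, as a rule through the whole cell cycle and from messages with ordinary poly(A) tails. Not every gene listed under this name below keeps to that rule. The libraries were made from RNA captured on oligo-dT beads, so the levels below are of transcripts that this capture retained and are not the total of histone message in the cells.

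The study compared 3 mouse libraries labelled TNFR2-deficient Treg with 3 labelled TNFR2 positive Treg, to find genes whose expression differs. Regulatory T (Treg) cells are T cells that restrain immune responses, and TNFR2, encoded by Tnfrsf1b, is one of the receptors for tumour necrosis factor. The labels give no strain, age, tissue, sort, treatment or time for either group, do not say how TNFR2 was lost, and do not say whether libraries came from separate animals. The p-values below thus weigh differences against library-to-library spread alone, and that spread may be purely technical.

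Total counts ranged from 19296082 to 24038118 per library. In CPM, read counts relative to the library total with the TMM scaling of edgeR, the 3 TNFR2-deficient libraries had Tnfrsf1b levels of 8.30, 7.99 and 7.32 and the TNFR2-positive ones 84.6, 84.2 and 80.2. All 6 Treg markers examined were lower in the TNFR2-deficient libraries, with a summed level of 27.6 to 34.7 against 467 to 517 CPM, and Foxp3 was at 1.34 to 1.53 against 73.0 to 76.9 CPM. All 8 markers of double-positive thymocytes were higher, at 2915 to 3027 against 290.0 to 306.1 CPM. Erythroid markers were also higher (6 of 6, 17980 to 20530 against 4222 to 6994 CPM), as were 4 of 6 B lineage markers, with 1 lower (11090 to 11620 against 8944 to 9609 CPM), and 4 of 6 myeloid markers (642 to 691 against 426 to 476 CPM). The Treg label of the TNFR2-deficient libraries goes against these marker levels, and no list summed to 0 in any library, although Rag2 had no counts in TNFR2-positive library 1 and Ptcra none in libraries 1 and 3 of that group. TNFR2-positive library 1 stood apart, with a chi-square per gene of 15.3 and 20.6 against the other libraries of its group, which differed from each other by 2.54. In such bulk samples fewer cells of a type and less RNA per cell cannot be told apart, and the part of these markers in the histone results was not tested.

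The stem-loop is the sequence that sets these messages apart. It was looked for on the given strand of the annotated transcripts (GENCODE M21) as a stem of GGCTCT and AGAGCC, of GGCCCT and AGGGCC or of GGTCCT and AGGACC, each with the loop TNTN between its arms, where N is any base. At least 1 transcript held such a form in 42 of the 60 genes (70.0%), against 4 of 21834 other protein-coding genes (0.018%). Where none was found, the annotated transcript may stop short of it, so such a gene need not lack a stem-loop. Hist1h4k, without a form, is annotated with 312 bases, while the form of Hist1h4n starts at base 384. The first form was the one found in all such genes of H1, H2A, H2B and H3, while 10 genes of H4 had the second and 2 the third. No form was found in Hist1h2bc and Hist2h2be, which rose as given below. These examples, with the stem-loop in capitals and up to 5 bases on either side, include some of the other genes that rose or fell.
Hist1h1c: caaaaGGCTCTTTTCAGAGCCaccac
Hist3h2a: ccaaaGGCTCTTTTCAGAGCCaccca
Hist3h2ba: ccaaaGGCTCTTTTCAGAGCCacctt
Hist1h2bg: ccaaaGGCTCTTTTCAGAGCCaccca
Hist1h3e: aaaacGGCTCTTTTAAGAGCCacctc
Hist1h4i: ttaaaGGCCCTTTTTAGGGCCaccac
Hist1h4n: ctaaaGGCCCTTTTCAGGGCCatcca
Hist2h4: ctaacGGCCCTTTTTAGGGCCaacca
Hist1h4j: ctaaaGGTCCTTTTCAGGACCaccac
The GGCC stem is shared by the H4 genes that moved in opposite directions, Hist1h4i and Hist1h4n upward and Hist2h4 downward, as given below.

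Start-site sequences were also compared, because members of 1 type differed in direction. Promoters of 55 of the 60 genes were matched in RefSeq (GRCm38.p6), and the 250 bases before the start were searched. No match was found for Hist1h3a, Hist1h3f, the H2B genes Hist1h2bc and Hist2h2be, which rose, and Hist2h4. As Hist2h4 is the H4 gene that fell, H4 promoters cannot be compared by direction here. The octamer ATTTGCAT (either strand), which POU factors such as Oct-1 bind, was present in 6 of 15 H2A and 6 of 15 H2B promoters and in 0 of those of H1, H3 and H4, against 1.6% of all promoters. CCAAT (either strand) was present in 5 of 5 H1, 15 of 15 H2A, 15 of 15 H2B, 7 of 8 H3 and 3 of 12 H4 promoters, against 33.8% of all. TATAAA (given strand) was present in 23 of 55 (41.8%), against 7.6% of all, and GGTCCG (either strand), chosen after the sequences had been seen, in 9 of 12 H4 promoters and 11 of 55 members against 6.7% of all. Stretches from 150 to 11 bases before the start are shown for the Hist3 pair and for members that rose or fell, with these motifs in capitals.
Hist3h2ba, chr11:58948761-58948900, plus strand: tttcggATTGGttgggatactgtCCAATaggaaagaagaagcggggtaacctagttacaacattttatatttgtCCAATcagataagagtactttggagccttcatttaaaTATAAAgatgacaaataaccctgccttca
Hist3h2a, chr11:58954535-58954674, plus strand: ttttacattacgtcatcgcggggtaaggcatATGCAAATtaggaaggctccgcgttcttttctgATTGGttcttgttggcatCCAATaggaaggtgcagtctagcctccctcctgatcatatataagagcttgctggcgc
Hist1h2bg, chr13:23571250-23571389, plus strand: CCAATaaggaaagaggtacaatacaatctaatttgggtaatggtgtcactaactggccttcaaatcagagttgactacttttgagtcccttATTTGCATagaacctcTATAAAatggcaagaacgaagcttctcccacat
Hist1h4i, chr13:22041373-22041512, minus strand: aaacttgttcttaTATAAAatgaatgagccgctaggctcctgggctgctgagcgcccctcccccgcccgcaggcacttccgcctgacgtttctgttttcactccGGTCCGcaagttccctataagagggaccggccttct
Hist1h4n, chr13:21832208-21832347, minus strand: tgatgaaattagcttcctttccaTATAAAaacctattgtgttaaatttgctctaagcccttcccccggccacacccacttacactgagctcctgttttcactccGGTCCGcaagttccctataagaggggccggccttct
In these windows Hist3h2ba has CCAAT in both orientations and TATAAA but no octamer, and its neighbour Hist3h2a has the octamer. A match is a description of letters and shows no binding.

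Together the 60 genes took only a small share of the libraries. Their counts summed to 2597, 2485 and 2591 in the TNFR2-deficient and 1961, 1817 and 1978 in the TNFR2-positive libraries, a share of 0.0110% ± 0.000205 and 0.00902% ± 0.000614 (SD, n = 3 per group). On the CPM scale the sum was 112, 112 and 108 against 84.0, 93.0 and 92.6, so the groups did not overlap and their means stood at a ratio of 1.23. A few genes carried most of it: Hist1h1c alone gave 34.5% of the member counts and the leading 7 gave 77.5%. Without Hist1h1c the ratio was 1.39. Sums are given without a p, since the genes were chosen with results known.

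The excess in the sum lay in the core histones H2A, H2B and H4. H2B summed to 44.2, 44.0 and 45.3 CPM against 30.6, 33.1 and 30.3 CPM, a ratio of 1.42. H4 summed to 16.7, 15.3 and 13.4 CPM against 9.77, 10.95 and 10.4 CPM, a ratio of 1.46. H2A summed to 10.9, 13.3 and 11.3 CPM against 9.04, 8.80 and 9.83 CPM, a ratio of 1.28. For these 3 types every TNFR2-deficient library was above every TNFR2-positive one. H1, at 38.2, 37.7 and 35.7 against 33.1, 38.2 and 39.7 CPM, and H3, at 2.34, 1.90 and 2.08 against 1.46, 1.94 and 2.44 CPM, overlapped between the groups.

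**Figure D1:**
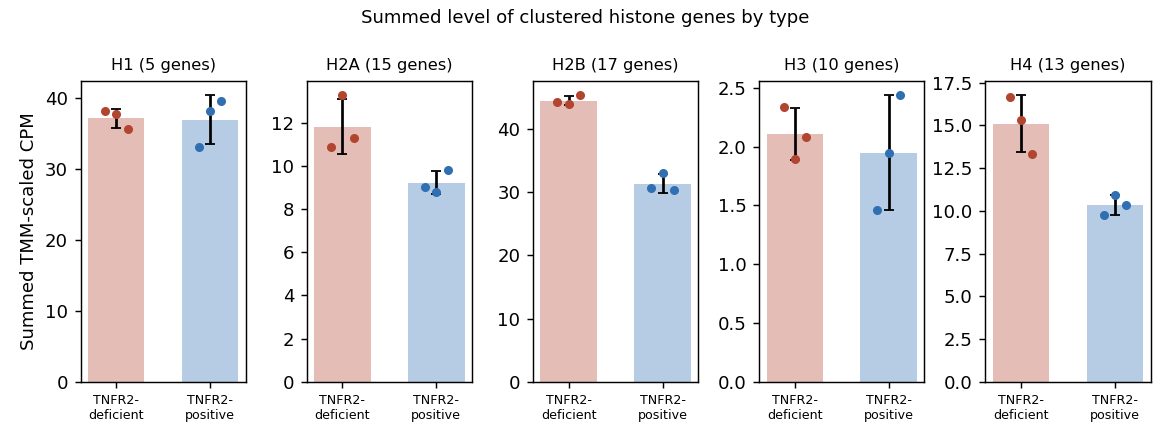
Summed TMM-scaled CPM of the clustered histone genes of each type (y axis, a separate scale for each type); points are libraries, bars are means and whiskers are SD (n = 3 per group). The points of the 2 groups are apart for H2A, H2B and H4 and overlap for H1 and H3.

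A low-count filter (filterByExpr of edgeR) kept 23 of the 60 genes for testing: 3 of H1, 3 of H2A, 9 of H2B, 8 of H4 and 0 of the 10 of H3. At an adjusted p below 0.05 (edgeR quasi-likelihood test, Benjamini-Hochberg over 17022 genes), 6 were higher in the TNFR2-deficient libraries, 2 were lower and 15 did not pass. That is 26.1% higher and 8.7% lower, where over all tested genes 35.1% were higher and 34.2% lower, 69.3% in all. The median log2 fold change (log2FC, TNFR2-deficient over TNFR2-positive) of the 23 was 0.27, against 0.04 over all tested genes, with a range of -1.53 to 1.97. All 3 libraries of the TNFR2-deficient group were above all of the other group for 8 of the 23 and below for 2, where the shares over all tested genes were 38.2% and 36.3%. A change of at least 2-fold was called upward for 3 of the 23, Hist3h2ba, Hist1h4n and Hist1h4m, and downward for 1, Hist2h4, where the shares over all tested genes were 8.01% and 13.5%. The 8 genes that passed were all of H2B or H4, while none of the 6 tested genes of H1 and H2A passed. Of those 6, Hist3h2a missed narrowly (edgeR adjusted p = 0.0566). Hist1h1d, Hist1h1e, Hist1h2ac and Hist1h2ae had only 59 to 124 counts over all 6 libraries, although Hist2h4 passed on 101.

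**Figure D2:**
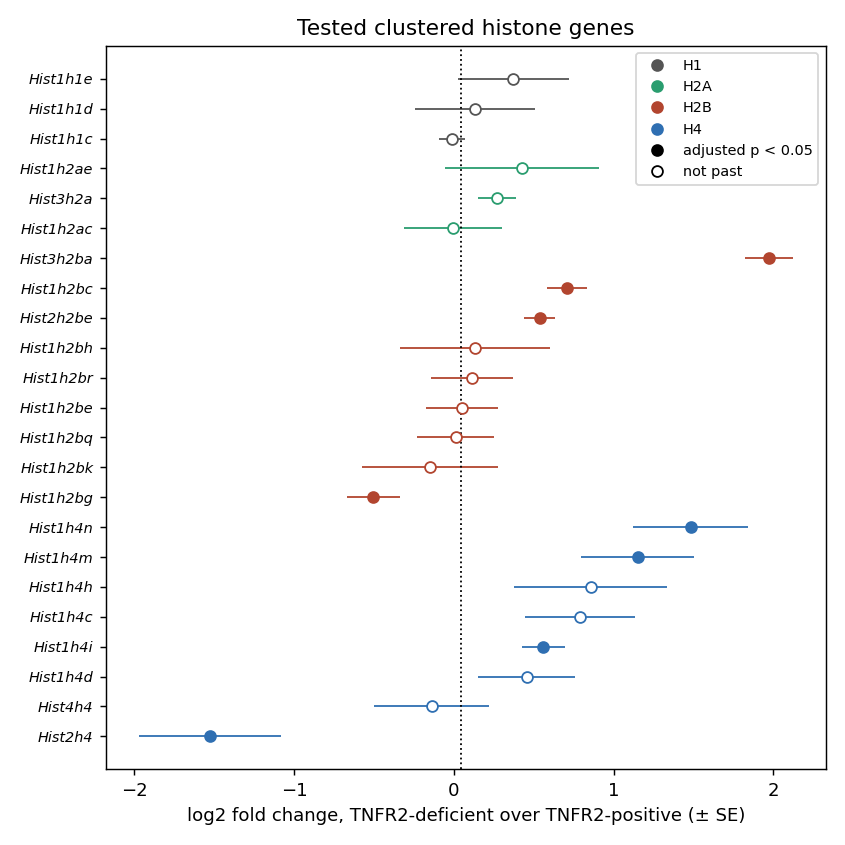
log2 fold change of the 23 tested genes (x axis, whiskers are SE), coloured by histone type; filled points passed an adjusted p of 0.05 and the dotted line is the median of all tested genes. Hist3h2ba stands farthest to the right at 1.97 and Hist2h4 farthest to the left at -1.53.

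Of the linker histone genes, Hist1h1c, which codes for H1.2, was the most abundant member, at 35.8, 34.5 and 33.7 against 30.9, 36.5 and 37.5 CPM. Its groups overlapped and it did not pass (log2FC = -0.011, SE 0.0796, edgeR adjusted p = 0.907), the direction being set by single libraries (-0.099 to 0.044 when each was left out). Hist1h1e was at 0.865, 1.22 and 1.04 against 1.07, 0.409 and 0.890 CPM, and Hist1h1d at 0.778, 1.40 and 0.541 against 0.986, 0.614 and 0.843 CPM. Neither passed (log2FC = 0.37 and 0.13, edgeR adjusted p = 0.357 and 0.77), and the groups overlapped in both. Part of the annotated exon sequence of Hist1h1e, 43.4%, is shared with Hist1h2be on the same strand, so reads there cannot be assigned to 1 of the genes with certainty.

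In H2A, Hist3h2a was the main gene, at 7.57, 9.21 and 8.07 against 7.29, 6.497 and 6.74 CPM. Its libraries did not overlap, but it missed the threshold (log2FC = 0.27, SE 0.117, edgeR adjusted p = 0.0566), which it passed without TNFR2-deficient replicate 1 (log2FC = 0.33) or TNFR2-positive replicate 1 (log2FC = 0.32). Trim17 overlaps at most 33.0% of its annotated exon length on the same strand, as bases in several Trim17 exon records were counted each time. Trim17 was at 0.623 ± 0.172 and 0.467 ± 0.00565 CPM. Hist1h2ac was at 0.778, 1.08 and 0.624 against 0.771, 0.921 and 0.796 CPM, and Hist1h2ae at 0.389, 0.677 and 0.457 against 0.171, 0.307 and 0.656 CPM. Both overlapped between the groups and neither passed (edgeR adjusted p = 0.992 and 0.445). The log2FC of Hist1h2ae was 0.43, and 1.09 without TNFR2-positive replicate 3 (edgeR adjusted p = 0.0864).

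In H2B, 3 of 9 tested genes rose, 1 fell and 5 did not pass (median log2FC = 0.11). That is 33.3% higher and 11.1% lower, against 35.1% and 34.2% of all tested genes. Hist3h2ba, in the Hist3 cluster beside Hist3h2a, had 7.05, 8.53 and 8.69 against 1.97, 2.05 and 2.15 CPM, on 163, 189 and 209 against 46, 40 and 46 counts. It was 3.93-fold higher (log2FC = 1.97, SE 0.148, edgeR adjusted p = 4.38e-07). The log2FC was 1.91 to 2.06 over the other settings tried. Its 3 high libraries are far from the other group, whose values lie close together. Hist1h2bc was at 10.6, 9.48 and 9.23 against 5.06, 6.29 and 6.65 CPM (log2FC = 0.71, SE 0.128, edgeR adjusted p = 0.000383). Hist2h2be was at 13.5, 12.6 and 14.7 against 9.21, 9.21 and 9.74 CPM (log2FC = 0.54, SE 0.0974, edgeR adjusted p = 0.000401). The other 14, among them Hist1h2bg, which fell, summed to 13.02 ± 0.338 against 13.9 ± 1.92 CPM. The 3 genes were set apart because they passed as higher, so a remainder without an excess follows in part from that choice.

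Hist1h2bg was the H2B gene that fell, at 4.41, 3.75 and 3.91 against 6.81, 5.78 and 4.50 CPM (log2FC = -0.50, SE 0.167, edgeR adjusted p = 0.0178). The groups do not overlap, but TNFR2-positive library 3 lies close to TNFR2-deficient library 1. The call was lost without TNFR2-positive replicate 1, where the log2FC was -0.35 (edgeR adjusted p = 0.0611), and likewise when TNFR2-deficient replicate 2 was left out, where it was -0.46 (edgeR adjusted p = 0.0549). Hist1h2bg shares 49.7% of its 50-base windows with other members, most of all with Hist1h2bc, which rose. Reads may thus be split between these genes, and the part of this in their opposite calls was not tested. Hist1h2be was at 2.16, 2.62 and 2.62 against 2.23, 3.12 and 1.83 CPM, with groups that overlap (log2FC = 0.052, edgeR adjusted p = 0.849). The other 4 tested H2B genes had log2FC between -0.15 and 0.13.

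In H4, 3 of 8 tested genes rose, 1 fell and 4 did not pass (median log2FC = 0.68). That is 37.5% higher and 12.5% lower, against 35.1% and 34.2% of all tested genes. Hist1h4i was at 7.83, 6.41 and 7.40 against 4.29, 5.32 and 5.10 CPM, with no overlap (log2FC = 0.56, SE 0.135, edgeR adjusted p = 0.00283). Hist1h4n was at 2.38, 1.76 and 0.998 against 0.514, 0.563 and 0.749 CPM (log2FC = 1.48, SE 0.361, edgeR adjusted p = 0.00303). Hist1h4m was at 2.42, 1.49 and 0.998 against 0.771, 0.819 and 0.609 CPM (log2FC = 1.15, SE 0.354, edgeR adjusted p = 0.012). Both were highest in TNFR2-deficient library 1, and the call of Hist1h4m was lost without it (log2FC = 0.75, edgeR adjusted p = 0.0786). Hist1h4m and Hist1h4n share 89.8% and 83.2% of their 50-base windows with another member, so reads may be split between them. Summed to 1 feature, which was decided after the data had been seen, they were at 4.80, 3.25 and 2.00 against 1.29, 1.38 and 1.36 CPM (log2FC = 1.32, SE 0.30, edgeR adjusted p = 0.00202). Without Hist1h4i, Hist1h4m and Hist1h4n, the other 10 H4 genes summed to 4.54 ± 0.956 against 4.11 ± 0.196 CPM, with groups that overlap. These 3 genes were set apart because they passed as higher, so the smaller excess of the remainder follows in part from that choice.

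Hist2h4 went the other way within the same type, at 0.432, 0.496 and 0.249 against 1.80, 0.614 and 0.936 CPM, on 10, 11 and 6 against 42, 12 and 20 counts. The groups do not overlap, with TNFR2-positive library 1 far above the rest, and the log2FC was -1.53 (SE 0.445, edgeR adjusted p = 0.00903). Without TNFR2-positive replicate 1 it was -0.99 (edgeR adjusted p = 0.0555). Without this library no member was lower, and 8 were higher. Hist4h4, the single gene of its cluster, was at 1.25, 0.857 and 0.499 against 0.771, 1.23 and 0.890 CPM and overlapped between the groups (log2FC = -0.14, edgeR adjusted p = 0.747). Hist1h4c, Hist1h4h and Hist1h4d had log2FC of 0.79, 0.86 and 0.46 and did not pass (edgeR adjusted p = 0.058, 0.131 and 0.197). Leaving out TNFR2-deficient replicate 1, Hist1h4c and Hist1h4h passed, with log2FC of 0.97 and 1.19 (edgeR adjusted p = 0.0414 and 0.0372).

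**Figure D3:**
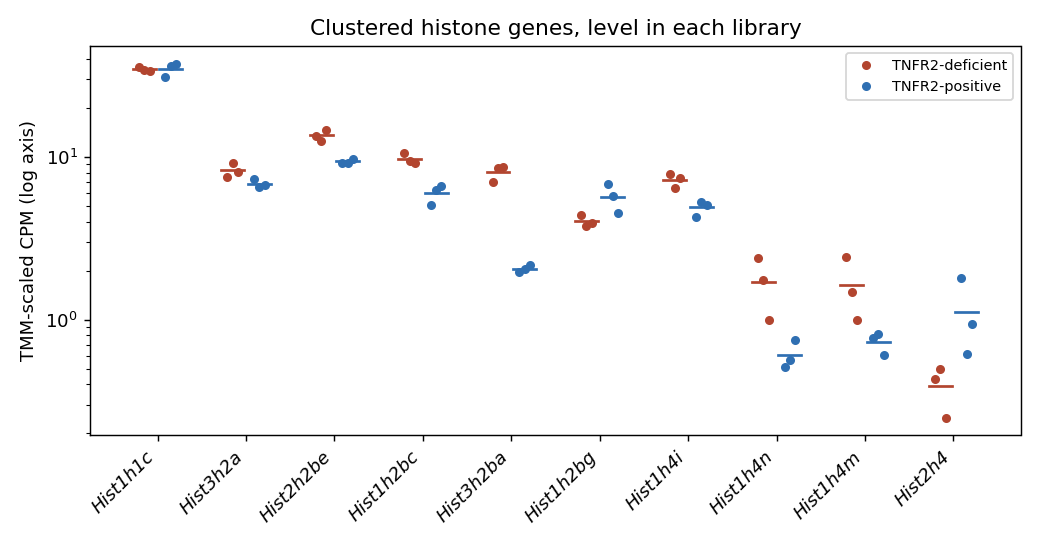
TMM-scaled CPM (log y axis) of 10 clustered histone genes in each library; points are libraries and lines are group means. Hist3h2ba has 7.05 to 8.69 CPM in the TNFR2-deficient and 1.97 to 2.15 CPM in the TNFR2-positive libraries, while the points of Hist1h1c are interleaved.

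The 37 genes that failed the filter had 3 to 61 counts in all 6 libraries together, and all 10 H3 genes are among them. Their sum was 8.35, 8.17 and 7.86 against 4.84, 6.14 and 6.65 CPM, with no overlap. With no filter on low counts all 37 were tested and Hist1h4j passed (log2FC = 1.81, SE 0.766, edgeR adjusted p = 0.0447), on 4, 13 and 6 against 2, 1 and 3 counts. In the same fit 13273 of all 32377 genes passed. The 10 H3 genes had a median log2FC of 0.063 there and none passed or had an unadjusted p below 0.05. Hist1h2bj entered the test and passed without TNFR2-positive replicate 1 (log2FC = 1.33, edgeR adjusted p = 0.0326) and when TNFR2-deficient replicate 2 was left out (log2FC = 1.17, edgeR adjusted p = 0.0442). By cluster the Hist3 pair summed to 16.4 ± 1.59 against 8.90 ± 0.357 CPM, a ratio of 1.84, Hist2 to 14.8 ± 1.32 against 11.1 ± 0.378 CPM, and Hist1 to 78.7 ± 3.88 against 68.9 ± 5.51 CPM.

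Levels between genes were compared per length, as CPM per kb of annotated exon. Hist1h1c was first of the 23 tested genes in both groups (22.2 and 22.4 CPM per kb). Hist3h2ba was second in the TNFR2-deficient libraries, at 13.2 CPM per kb, and ranked 6 in the TNFR2-positive ones, at 3.35 CPM per kb, while Hist1h2bg ranked 5 at 6.51 and 2 at 9.22 CPM per kb. Summed per kb, the types ran in the TNFR2-deficient libraries from H2B (42.0) through H1 (23.7 ± 0.887) and H4 (23.6 ± 3.20), which do not differ beyond their spread, to H2A (9.70) and H3 (3.004). In the TNFR2-positive libraries the order was H2B (28.8), H1 (23.5 ± 2.40), H4 (14.2 ± 1.11), H2A (6.63) and H3 (2.50). All are means over 3 libraries.

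The tested and untested genes differed in what is annotated after the stem-loop. A median of 770 annotated bases followed it in the 19 tested genes that have one, with a range of 3 to 4884, and a median of 42 in 23 untested ones. With at least 100 such bases, 15 of 21 genes were tested, 2 higher and 2 lower. With fewer, 4 of 21 were tested, 2 of them higher, the near-identical Hist1h4m and Hist1h4n. In the 4 tested genes where no form was found, Hist1h2bc, Hist2h2be, Hist1h2bq and Hist1h2br, 2 were higher. Over all tested genes 35.1% were higher and 34.2% lower. Across the 42 genes the number of bases after the stem-loop had a Spearman correlation of 0.50 with total counts and -0.005 with CPM per kb, a description of points that share libraries. The bases after the stem-loop are part of the length by which CPM per kb is divided. The part of transcript length in these correlations was not tested. Untested genes also shared more sequence with other members, a median of 58.0% of 50-base windows against 22.1%, and how the counting treated reads with several positions is not given in the sources used here.

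**Figure D4:**
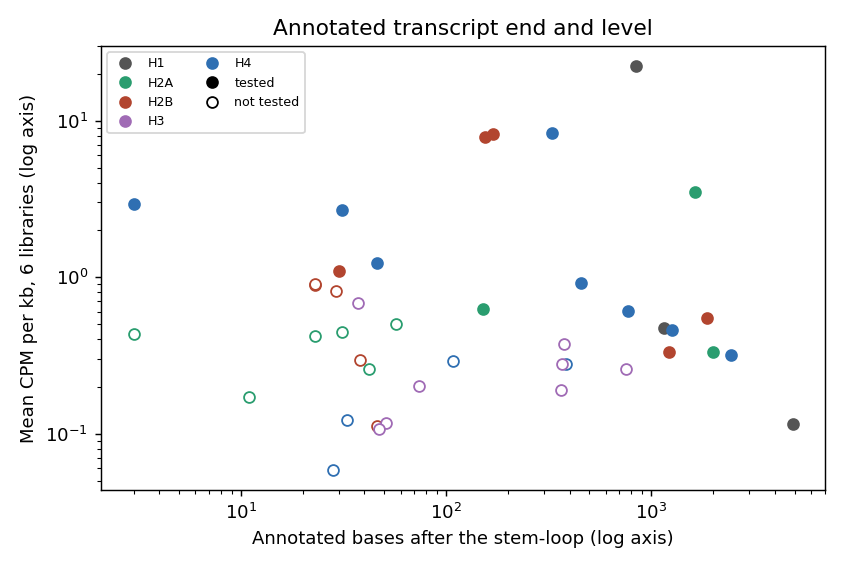
Annotated bases after the stem-loop (log x axis) and mean CPM per kb over 6 libraries (log y axis) for the 42 genes with a stem-loop form, coloured by type; filled points were tested. Tested genes lie mostly to the right, and the highest point is Hist1h1c at 840 bases.

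Summed, the replacement histones were far more abundant, at 2942 to 2965 against 2041 to 2333 CPM, and most moved upward. Single genes ranged in the TNFR2-deficient libraries from H2afy2 at 0.020 to H3f3a at 402 CPM per kb. The clustered gene Hist1h1c, at 22.2 CPM per kb, was above several of them. Of 11 listed genes 10 were tested, of which 9 rose and 1 fell, where 35.1% of all tested genes were higher and 34.2% lower. The median log2FC was 0.50 against 0.04 over all genes. H3f3a and H3f3b, which both code for H3.3, were at 402 and 305 CPM per kb in the TNFR2-deficient libraries, where the 10 clustered H3 genes summed to 3.004 CPM per kb. H2afv, which codes for a form of H2A.Z, was at 52.2, 56.7 and 52.6 against 23.7, 26.2 and 28.3 CPM (log2FC = 1.05, SE 0.0758, edgeR adjusted p = 3.29e-07). H2afx, the H2A form phosphorylated at DNA breaks, was at 41.8, 45.5 and 43.5 against 20.3, 22.5 and 24.8 CPM (log2FC = 0.95, SE 0.08, edgeR adjusted p = 1.07e-06). Neither gene has any overlap between its groups. Cenpa, the centromeric H3, was the one that fell (log2FC = -0.65, edgeR adjusted p = 8.35e-06). It was picked out after its values were seen.

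Of 28 genes that transcribe or process histone message, 4 rose, 15 fell and 9 did not pass, with a median log2FC of -0.20. That is 67.9% called, near the 69.3% of all tested genes, with 14.3% higher and 53.6% lower against 35.1% and 34.2%. Slbp, the stem-loop binding protein, was at 106, 104 and 107 against 97.4, 93.9 and 99.5 CPM, with no overlap, and missed the threshold (log2FC = 0.12, SE 0.0562, edgeR adjusted p = 0.0672). It passed without TNFR2-positive replicate 1 (log2FC = 0.12, edgeR adjusted p = 0.0358). Npat, the coactivator of histone gene transcription, fell, at 23.7, 22.7 and 24.3 against 51.5, 38.0 and 35.7 CPM (log2FC = -0.82, SE 0.119, edgeR adjusted p = 6.9e-05). Its TNFR2-positive library 1 was the highest of all 6.

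Gon4l, a nuclear protein of the transcription group, fell from 134, 121 and 103 to 44.2, 42.3 and 44.1 CPM (log2FC = -1.46, SE 0.0888, edgeR adjusted p = 7.99e-08). Tut7, which adds uridines to RNA ends, fell from 234, 186 and 172 to 67.9, 70.4 and 71.7 CPM (log2FC = -1.50, SE 0.0991, edgeR adjusted p = 1.59e-07). Both have every TNFR2-deficient library below every other. The calls of this list moved with gene length: across all tested genes log2FC had a Spearman correlation of -0.30 with exonic length. With that relation removed 10 rose and 11 fell, the median was -0.038 against 0.12 over all genes, the log2FC of Tut7 was -0.89 (edgeR adjusted p = 9.8e-10), and Slbp was among those that rose (log2FC = 0.32, edgeR adjusted p = 5.83e-05). The same 6 higher and 2 lower clustered histone genes were called with it removed. Their type medians were then 0.25 for H1, 0.15 for H2A, 0.0080 for H2B and 0.61 for H4, so that of H2B was below the 0.12 over all genes.

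S phase genes, expressed when these histones are made, moved in both directions: of 35, 8 rose, 15 fell and 12 did not pass (median log2FC = -0.13). The share called, 65.7%, was near the 69.3% of all tested genes, with 22.9% higher and 42.9% lower against 35.1% and 34.2%. Without TNFR2-deficient replicate 1 or replicate 3, the number that rose was 3 or 5. Top2a, a topoisomerase of dividing cells, was at 68.2, 68.2 and 69.7 against 145, 118 and 123 CPM (log2FC = -0.91, SE 0.0779, edgeR adjusted p = 1.26e-06). E2f2, a transcription factor of the cell cycle, was at 126, 125 and 124 against 80.1, 80.1 and 81.0 CPM (log2FC = 0.63, SE 0.0545, edgeR adjusted p = 1.32e-06). The groups of both genes are apart, in opposite directions. Thymocyte, erythroid and Treg markers differed between the same libraries, and their part in these differences was not tested.

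**Figure D5:**
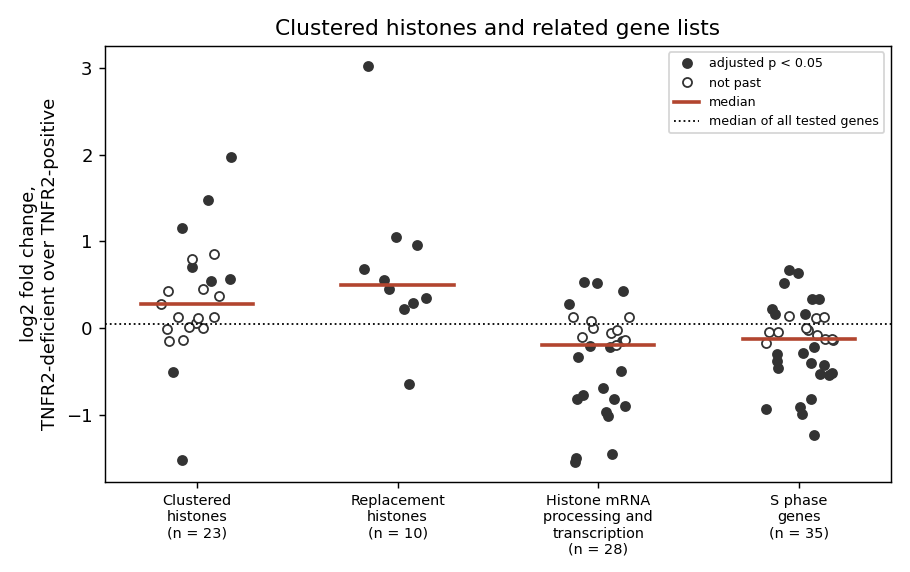
log2 fold change (y axis) of each tested gene of 4 lists; filled points passed an adjusted p of 0.05, red lines are list medians and the dotted line is the median of all tested genes. The list medians are 0.27 for clustered histones, 0.50 for replacement histones, -0.20 for processing and transcription and -0.13 for S phase genes.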

How the data were processed

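RNA-seq counts of 6 mouse libraries were analysed. The authors deposited whole-number counts per Ensembl gene with no normalization; per the labels' protocols, mRNA was captured with oligo-dT beads, fragmented and amplified by PCR. HISAT2 2.1.0 and the build GRCm39 are named, per the submitters' processing notes. For the counting program, its annotation, its strand setting and its rule for multiply aligned reads, the value is not given in the sources used. Of 32377 identifiers 30529 matched a symbol. Biotypes, exon lengths and stem-loops came from GENCODE M21, and promoters from RefSeq, both of the older build GRCm38.

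Counts were filtered with filterByExpr, TMM-scaled and tested in edgeR 4.0.16 (R 4.3.3, limma 3.58.1), with group as the only term and Benjamini-Hochberg adjustment over 17022 genes; the test was checked on simulated counts. Levels are TMM-scaled CPM. Named with every library's value are Slbp, Npat, up to 5 most abundant tested members per type and the 2 members of each further list with the smallest adjusted p. The members and lists were chosen with earlier results of these data known. Alternatives were RLE scaling, library size only, DESeq2 1.42.0, limma-voom, other filters, a replicate block, removal of the relation to exon length (spline, 4 degrees of freedom) and leaving out each library; merging near-identical copies was added after seeing the data. Depth of 19296082 to 24038118 counts puts a floor of 3 counts at 0.125 to 0.155 CPM, counting error only.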

Additional observations from a re-analysis of the deposited data

How the results depend on the processing

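The 6 higher and 2 lower clustered histone genes were the same genes under RLE scaling, library size only, DESeq2, limma-voom, the replicate block and with the exonic length relation removed. Requiring at least 1 CPM in 3 libraries left 11 genes, with 4 higher and 1 lower, since Hist1h4m, Hist1h4n and Hist2h4 were not kept; without a filter 7 were higher and 2 lower. Merging the near-identical pairs, chosen after seeing the data, gave 5 higher and 2 lower of 21. Leaving out each library gave 6 to 8 higher and 0 to 2 lower. Over those, median log2FC was -0.017 to 0.37 for H1, 0.051 to 0.33 for H2A, 0.068 to 0.44 for H2B, 0.51 to 0.74 for H4, 0.44 to 0.56 for replacement histones, -0.21 to -0.18 for processing and transcription, and -0.17 to -0.099 for S phase. Without a filter the H2A median was 0.74 over 15 genes. The processing and transcription median was -0.23 under RLE scaling and under DESeq2, -0.17 without a filter and -0.038 with the length relation removed. In that last fit the medians were 0.25 for H1, 0.15 for H2A, 0.0080 for H2B and 0.61 for H4, against 0.12 over all genes. No H3 gene passed the main filter; without a filter the median of the 10 H3 genes was 0.063. The member share of counts in the TNFR2-deficient libraries was 0.0120% without mitochondrial and globin genes, against 0.00956% in the TNFR2-positive ones, and 0.0109% to 0.0111% leaving out each library, against 0.00882% to 0.00937% in the TNFR2-positive ones. Of 329 gene values under the alternatives 306 kept direction and side of the threshold, 4 lost and 4 gained a call, and 15 reversed, the cause of which was not tested. The reversals were of 5 genes near 0: Hist1h1c (0.0195 without a filter, -0.099 to 0.044 leaving out each library, with 0.00042, 0.018 and 0.044 above 0), Hist1h1d (-0.32 to 0.40, with -0.32 and -0.027 below 0), Hist1h2ac (0.028 without a filter, -0.25 to 0.16, with 0.031, 0.072 and 0.16 above 0), Hist1h2be (-0.11 to 0.28, with -0.0001, -0.0024 and -0.11 below 0) and Hist4h4 (-0.51 to 0.14, with 0.063 and 0.14 above 0). Adjusted p of the called genes that lost a call ranged over the alternatives from 0.00301 to 0.0611 for Hist1h2bg, 0.000857 to 0.0786 for Hist1h4m and 0.00065 to 0.0555 for Hist2h4, and that of Hist3h2a and Slbp, which gained one, from 0.0341 to 0.279 and from 5.83e-05 to 0.254. Calls were also gained by Hist1h4c and Hist1h4h without TNFR2-deficient replicate 1, by Hist1h2bj without TNFR2-deficient replicate 2 or TNFR2-positive replicate 1, and by Hist1h4j without a filter. The replicate numbers did not pair the libraries (correlations of deviations of same-numbered libraries 0.031, 0.046 and -0.053), and with the replicate block medians were 0.093 for H1, 0.27 for H2A, 0.062 for H2B, 0.67 for H4, 0.50 for replacement histones, -0.20 for processing and transcription and -0.13 for S phase. Of the 37 genes below the main filter, 1 passed with no filter, and 3 had an unadjusted p below 0.05 (edgeR). Of all 32377 genes in that fit, 13273 passed.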
